A study of Mus musculus with 3 samples.

Results

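Cytochrome P450 genes (Cyp genes) were followed in a map of open chromatin of fetal mouse liver. The members were the protein-coding genes of the GENCODE M21 annotation of mm10 whose symbol is Cyp, a number, a letter and a number, with Cyp51 added. This gave 94 of 21827 protein-coding genes. The assay was DNase-seq, which treats nuclei with the nuclease DNase I and sequences the ends it leaves where DNA is exposed. The 3 libraries, biological replicates 1, 2 and 3 of a single group, came from liver of embryos aged 13.5 days. The mice were wild type on a C57BL/6N,129 background and carried 1 copy of the yeast artificial chromosome A20. The labels give 1 donor for the 3 libraries and a separate biosample for each, so the spread between libraries may be partly technical. No other tissue, age or treatment was sampled, and values are therefore given per library and set beside all protein-coding genes.

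P450 enzymes are haem proteins that insert an oxygen atom into a substrate, with electrons from P450 oxidoreductase in the endoplasmic reticulum or from ferredoxin in mitochondria. A small set of them carries out fixed steps of sterol, bile acid, steroid hormone, vitamin D and retinoic acid metabolism. The large CYP2, CYP3 and CYP4 families oxidise drugs, foreign compounds and fatty acids, and many of their genes are marks of the mature hepatocyte. At the stage sampled the liver is the main site of red cell formation, and its hepatoblasts are immature.

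The libraries held 34369, 122281 and 60862 peaks in replicates 1, 2 and 3. A peak is an interval that the authors called as accessible, and its signal is a value they scaled within each library. Promoters were taken as windows that reach 1000 bp up- and downstream from every transcription start site (TSS) of coding transcripts, and the strongest peak in the window gave the promoter signal. Each gene was ranked by the percent of protein-coding genes that it exceeded in promoter signal, called its percentile, and a gene that lacked a peak was set to 0. Promoters of 8 of 8 erythroid marker genes had a peak in all 3 libraries, against 3 of 12 hepatoblast marker genes. The share over all protein-coding genes was 51.4%. Of the 12 hepatoblast markers 10 had a peak in at least 1 library, against 67.9% of all genes, and Alb and Serpina1a had none. The numbers of hepatoblast markers with a peak were 3, 10 and 9 in replicates 1, 2 and 3 (25%, 83.3% and 75%). The shares over all genes were 54.0%, 67.3% and 56.4%, so the markers lay below them in replicate 1 alone. Fewest markers were seen in that library, which has the fewest peaks. In bulk tissue, fewer cells of a type and less open chromatin per cell cannot be told apart.

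Few P450 promoters were accessible. A promoter peak was present in all 3 libraries at 12 of 94 Cyp genes (12.8%), against 51.4% of all protein-coding genes. Another 8 members had a peak in 2 libraries, 13 had one in 1 library and 61 had none. In replicate 1, 15 members (15.96%) had a promoter peak, against 54.0% of all protein-coding genes. In replicate 2 the count was 31 (33.0%), against 67.3% of all genes. In replicate 3 it was 19 (20.2%), against 56.4% of all genes. The mean over libraries was 23.0% ± 8.86 for Cyp genes and 59.2% ± 7.12 for all protein-coding genes (SD, n = 3 each), and the ranges of the 3 libraries did not overlap. At least 1 library showed a peak at 33 members, against 67.9% of all genes, and 11 of the 33 rested on replicate 2 alone. Without replicate 2 the number was 22. With the 34369 strongest peaks of each library it was 17. The share of all genes with a peak in at least 1 library was not computed under these settings. These falls are therefore not shown to be particular to Cyp genes.

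**Figure D1:**
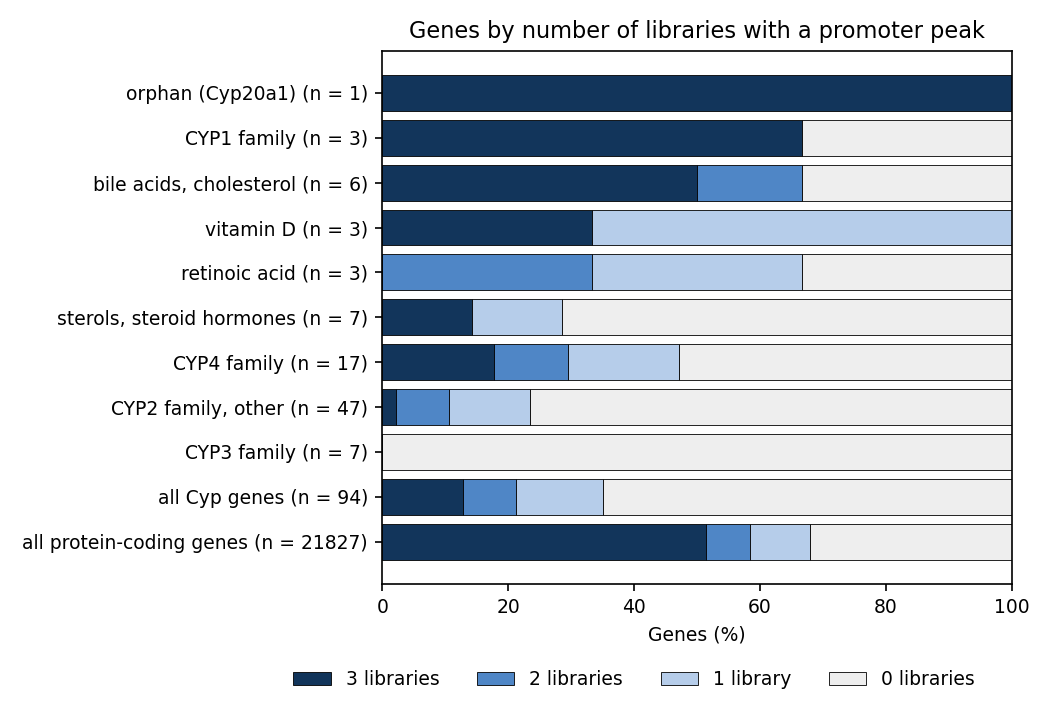
Each bar divides the genes of a P450 role or family by the number of libraries (3, 2, 1 or 0) with a promoter peak, in percent of genes on the x axis, with all Cyp genes and all protein-coding genes at the bottom. Cyp2r1 is counted under vitamin D and not with the other CYP2 genes. All 7 members of the CYP3 family lack a peak, and the share with a peak in all 3 libraries is 12.8% for Cyp genes and 51.4% for all protein-coding genes.

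The 12 promoters with a peak in every library belonged to several families and kept nearly the same order in each library. Their mean percentiles ran from 42.6 to 82.3. The Spearman correlation of their signals was 0.970 for replicates 1 and 2, 0.932 for replicates 1 and 3 and 0.965 for replicates 2 and 3, across the same 12 genes, which share each library's scale and are not independent replicates. Cyp46a1, Cyp51 and Cyp20a1 held the top 3 places in that order in each library. Their mean percentiles were 82.3 ± 6.91, 75.9 ± 3.19 and 74.8 ± 3.16 (SD, n = 3). Within replicates 1, 2 and 3, Cyp46a1 stood 11.1, 1.85 and 6.38 percentile points above Cyp51, and Cyp51 stood 0.916, 1.65 and 0.733 above Cyp20a1. The second step was small in each library but kept its sign.

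**Figure D2:**
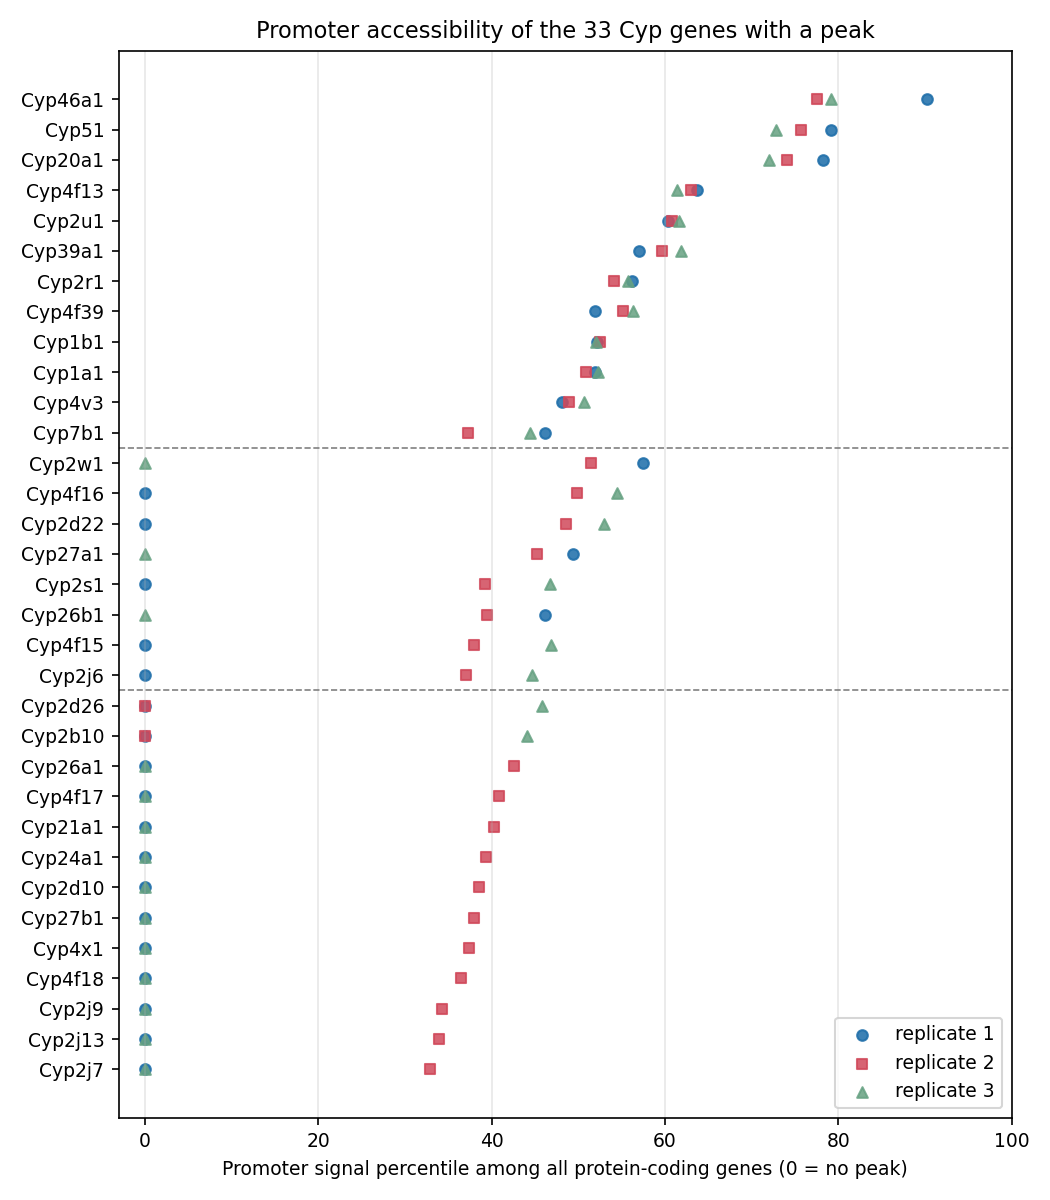
Points give the promoter signal percentile (x axis, among all protein-coding genes, 0 where no peak was listed) of the 33 Cyp genes with a peak, 1 symbol for each library. Dashed lines divide the genes with a peak in 3, 2 and 1 libraries. Cyp46a1 reached 90.2 in replicate 1, and 11 of the 13 genes at the bottom have a point above 0 in replicate 2 alone.

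Among the 7 P450 genes of sterol and steroid hormone synthesis, 1 (Cyp51) had a promoter peak in every library and 1 further member had one in a single library, against 51.4% of all protein-coding genes with a peak in all 3. Cyp51 encodes lanosterol 14-demethylase, a step of cholesterol synthesis found in nearly all cells. Its promoter signal was 3.71, 8.34 and 4.56 in replicates 1, 2 and 3. Cyp21a1, the steroid 21-hydroxylase gene of the adrenal cortex, had a signal of 0.417 in replicate 2 and no peak in replicates 1 and 3. No library listed a promoter peak at Cyp11a1 (side-chain cleavage of cholesterol), Cyp11b1 or Cyp11b2 (the last steps to corticosterone and aldosterone), Cyp17a1 (17-hydroxylase and lyase) or Cyp19a1 (aromatase). Of the marker genes of adrenal cortex and gonad, Mc2r, Nr5a1 and Star also had no peak, while Amh and Fdx1 had one in all 3 libraries.

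Of the 6 genes of bile acid synthesis and cholesterol hydroxylation, 3 had a promoter peak in every library (50%) and 4 in at least 1 (66.7%). These shares lay near those of all protein-coding genes, 51.4% and 67.9%. Cyp7a1, the rate-limiting 7-hydroxylase of the classical route, and Cyp8b1, the sterol 12-hydroxylase that sets the share of cholic acid, had no promoter peak in any library. Cyp7b1, the oxysterol 7-hydroxylase of the alternative route, had weak signals of 0.325, 0.326 and 0.291 in replicates 1, 2 and 3, at a mean percentile of 42.6 ± 4.73 (SD, n = 3). Cyp27a1, the mitochondrial sterol 27-hydroxylase, had 0.638 and 0.622 in replicates 1 and 2 and no peak in replicate 3. Cyp39a1, a 7-hydroxylase of 24-hydroxycholesterol, stood at 1.31, 3.03 and 2.09. Its window overlaps that of Slc25a27, and its peaks lay -464 to -105 bp from its own first TSS, so the peak cannot be assigned to either gene.

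The highest P450 promoter of the series was that of Cyp46a1, the cholesterol 24-hydroxylase best known from neurons. Its signal was 5.30, 9.09 and 6.50 in replicates 1, 2 and 3. The gene lies at chr12:108334381-108362234 on the plus strand and no other coding gene's window overlaps its own. The strongest peak lay upstream of the TSS in all 3 libraries, at -380 to -21 bp, -260 to -181 bp and -260 to -81 bp in replicates 1, 2 and 3. In replicate 2 it was 80 bp wide. Footprints, the short intervals that the authors called as protected from DNase I, numbered 7, 11 and 11 in the window. Not all lay inside a listed peak. The stretch at -161 to -135 bp was in a footprint in all 3 libraries but outside the peak of replicate 2. Bases covered by a footprint in all 3 libraries numbered 108, the most of the 12 promoters. A separate region at chr12:108333081-108333340, between genes and centred 1170 bp upstream of the TSS, also had a peak in all 3 libraries, with signals of 1.49, 1.73 and 1.08. The sequence from -320 to -21 of the TSS shows where they fall, among GC-rich repeats that hold the letters GGGCGG and GGGCGTGG (mm10, chr12:108334061-108334360, plus strand; capitals mark the 100 bases in a footprint in all 3 libraries):
Cyp46a1: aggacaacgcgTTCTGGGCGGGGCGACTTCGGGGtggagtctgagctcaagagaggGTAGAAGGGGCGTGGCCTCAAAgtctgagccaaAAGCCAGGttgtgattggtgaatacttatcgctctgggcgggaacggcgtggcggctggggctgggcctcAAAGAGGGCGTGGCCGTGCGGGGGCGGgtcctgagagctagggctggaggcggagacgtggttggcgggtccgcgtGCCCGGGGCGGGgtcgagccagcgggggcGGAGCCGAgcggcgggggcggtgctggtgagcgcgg

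Cyp51 and Cyp20a1 showed fewer shared footprint bases upstream. Cyp20a1, an orphan P450 with no settled substrate, had signals of 3.61, 7.70 and 4.36 in replicates 1, 2 and 3. The strongest peak of both genes spanned the TSS in each library. Cyp51 held 50 shared footprint bases in its window, of which 9 fell in the upstream 150 bp, and Cyp20a1 held 42, of which 23 did. The upstream sequences are shown for comparison with Cyp46a1, from the strand of each gene and with the same use of capitals (mm10, Cyp51 at chr5:4104747-4104896, minus strand, and Cyp20a1 at chr1:60343173-60343322, plus strand):
Cyp51: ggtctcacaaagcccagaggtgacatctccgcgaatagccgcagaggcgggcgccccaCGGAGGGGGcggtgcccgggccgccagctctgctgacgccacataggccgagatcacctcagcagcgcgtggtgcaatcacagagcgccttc
Cyp20a1: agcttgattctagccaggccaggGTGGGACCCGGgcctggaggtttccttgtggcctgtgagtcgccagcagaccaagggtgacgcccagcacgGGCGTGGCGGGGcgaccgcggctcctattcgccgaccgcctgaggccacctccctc

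Of the 3 vitamin D genes 1 had a peak in all 3 libraries, and all 3 had one in at least 1 library. Of the 3 retinoic acid genes none had a peak in all 3 libraries, and 2 had one in at least 1. The shares over all protein-coding genes were 51.4% and 67.9%, and groups of 3 genes are too small to set against them. Cyp2r1, the main vitamin D 25-hydroxylase, had signals of 1.24, 1.63 and 1.07 in replicates 1, 2 and 3, at a mean percentile of 55.4 ± 1.09 (SD, n = 3). Cyp27b1, which makes the active hormone, and Cyp24a1, which breaks it down, had signals of 0.347 and 0.389 in replicate 2 and no peak in replicates 1 and 3. The window of Cyp24a1 overlaps that of Pfdn4. The retinoic acid hydroxylase Cyp26b1 had 0.313 and 0.392 in replicates 1 and 2 and no peak in replicate 3. Its strongest peak in replicate 1, 31 bp wide, lay in the windows of the TSSs 5903 and 6228 bp inside the gene. That peak was 289 to 319 bp downstream of the innermost TSS. The window of the first TSS held no peak in replicate 1. Cyp26a1 had 0.500 in replicate 2 alone, and Cyp26c1 had no peak.

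The CYP1 family oxidises aromatic compounds under control of the aryl hydrocarbon receptor. Cyp1a1 and Cyp1b1 had a peak in all 3 libraries, and Cyp1a2, the family member typical of mature liver, had none. A family of 3 genes is too small to set against the 51.4% of all protein-coding genes. Cyp1a1 had signals of 0.851, 1.09 and 0.720 in replicates 1, 2 and 3. These strongest peaks lay 233 to 452 bp downstream of the outer TSS. At the inner TSS, 9685 bp further on, the nearest peaks had signals of 0.627, 0.660 and 0.395 and lay between -172 and 27 bp of it. A peak of 0.672 in replicate 1, at -1188 to -869 bp from that TSS, was at the edge of its window. Cyp1b1 had signals of 0.873, 1.32 and 0.699. In each library its single promoter peak lay well upstream, between -819 and -560 bp, and no peak covered the TSS. The 9 shared footprint bases of Cyp1b1, 8 of them in the core match, fell on the following stretch from -760 to -640, in letters that hold a match, with 0 mismatches, to the core motif of the insulator protein CTCF (mm10, chr17:79715701-79715821, minus strand; capitals as above):
Cyp1b1: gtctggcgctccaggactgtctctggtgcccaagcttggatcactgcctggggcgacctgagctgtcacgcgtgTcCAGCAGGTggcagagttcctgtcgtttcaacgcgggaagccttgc

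**Figure D3:**
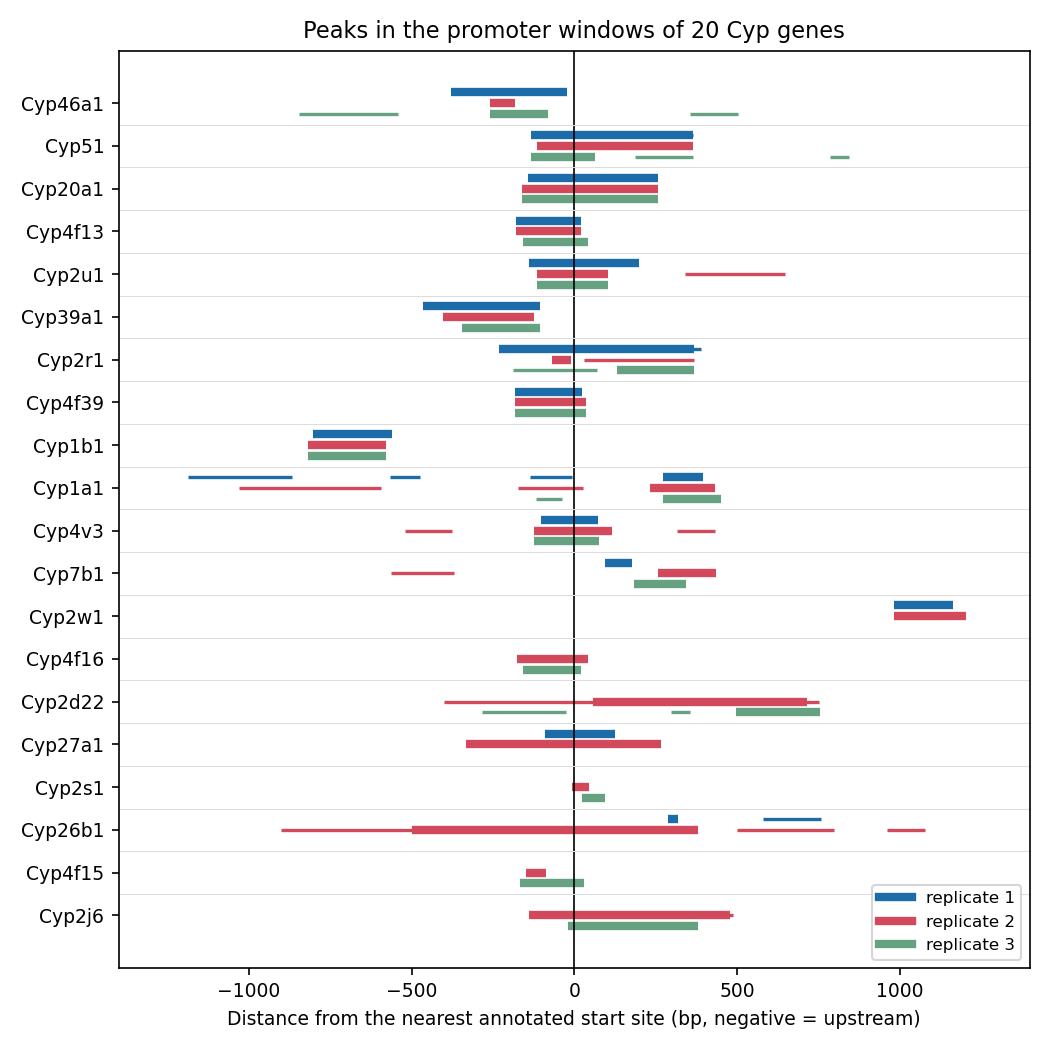
Horizontal bars show the peaks of each library in the promoter windows of the 20 Cyp genes with a peak in at least 2 libraries, by distance in bp from the nearest annotated TSS (vertical line, negative is upstream). Thick bars are the strongest peak of the gene in that library. Cyp1b1 has its peak at -819 to -560 bp, and Cyp20a1, Cyp4f13 and Cyp4v3 have theirs across the TSS.

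Over the 12 promoters, the strongest peak spanned a TSS in all 3 libraries at 6 genes (Cyp51, Cyp20a1, Cyp4f13, Cyp2u1, Cyp4f39 and Cyp4v3). It spanned none in any library at 5 genes (Cyp46a1, Cyp39a1, Cyp1b1, Cyp1a1 and Cyp7b1). A footprint lay in the window in all 3 libraries at 11 of 94 Cyp genes (11.7%), against 49.5% of all protein-coding genes. The exception among the 12 was Cyp7b1, with 5 footprints in replicate 2 and none in replicates 1 and 3.

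The CYP4 family hydroxylates the end carbon of fatty acids, and its members with a peak in all 3 libraries were of the Cyp4f and Cyp4v subfamilies. Peaks in all 3 libraries were found at 3 of 17 genes, against 51.4% of all protein-coding genes, and 8 had a peak in at least 1 library. Cyp4f13 had signals of 2.00, 4.02 and 2.00 in replicates 1, 2 and 3, at a mean percentile of 62.7 ± 1.22 (SD, n = 3). Cyp4f39, whose human counterpart makes skin ceramides with ultra-long fatty acids, had 0.851, 1.86 and 1.15. Cyp4v3 had 0.549, 0.889 and 0.602. Cyp4f16 (0.979 and 0.941) and Cyp4f15 (0.347 and 0.402) had peaks in replicates 2 and 3 and none in replicate 1. Cyp4f17 had 0.438 in replicate 2 alone. None of the 5 Cyp4a genes, which are targets of the fatty acid receptor PPAR alpha in adult liver, had a peak in any library.

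The CYP2 family, the largest with 48 genes, had a peak in all 3 libraries at 2 genes and in at least 1 library at 12, against 51.4% and 67.9% of all protein-coding genes. One is Cyp2r1, described above with the vitamin D genes. The other is Cyp2u1, a fatty acid hydroxylase outside the drug-metabolising clusters, with signals of 1.67, 3.38 and 2.06 in replicates 1, 2 and 3. Cyp2d22 had 0.854 and 0.789 in replicates 2 and 3, and Cyp2s1 had 0.386 and 0.395 in the same libraries. Cyp2w1 had 1.37 and 1.17 in replicates 1 and 2. Its peak began 984 bp downstream of the TSS, at the edge of the window, and that window overlaps the window of Cox19. None of the 15 Cyp2c and 4 Cyp2a genes had a peak, nor did Cyp2e1, the ethanol-inducible P450 of adult liver (a gene named after its values were seen). Of 5 Cyp2b genes, Cyp2b10 alone had one, in replicate 3 with a signal of 0.263, and of 8 Cyp2d genes 3 had one in at least 1 library. The CYP3 family, which holds the main drug-metabolising P450 genes of liver, had no promoter peak at any of its 7 genes, against the same shares. The windows of these 7 genes held 2 to 8 CpG sites. Of all genes with 0 to 20 sites, 7.89% had a peak in at least 1 library.

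Positions that the authors listed at a q-value of at most 0.05 touched 2 of the 61 windows without a peak. They were Cyp2b9, with 43 bp in replicate 3, and Cyp2c68, with 9 bp in replicate 2, both named after their values were seen. All windows with a peak held such positions in the library concerned. At most 77.5%, 66.3% and 63.2% of the listed bases at member windows lay inside peaks in replicates 1, 2 and 3. Bases under overlapping peaks of a library were counted once for each peak, so these shares are upper limits. The positions follow the peaks and are not separate evidence, and their share over all genes without a peak was not computed. Reads from copied sequence can be lost in alignment, so the share of each window's 36-base words that occur more than once in the genome was computed. Its median was 15.3% in the 61 windows without a peak, against 0% in the 12 with a peak in all 3 libraries. It exceeded 50% in 7 windows, none with a peak. Among the 61, 29 had a share under 10%, including Cyp7a1 (0%), Cyp2e1 (0%) and Cyp3a11 (2.80%). With these 7 windows left out, 12 of 87 members had a peak in all 3 libraries, a count that could not change because none of the 7 had a peak. The copied share was not computed for other genes.

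CpG content divided the P450 promoters in much the same way as it divided all genes. The windows of Cyp genes held a median of 15.5 CpG sites, against 66 for all protein-coding genes. The median was 69.5 for members with a peak in all 3 libraries, 29 for those with a peak in 1 or 2 and 12 for those with none. Over all genes the windows with a peak in all 3 libraries held a median of 93, and those without one 17. In the lowest quintile of all genes (0 to 20 CpG sites), 0 of 56 members had a peak in all 3 libraries, against 0.709% of all genes. In the second quintile (21 to 49 sites) 3 of 22 members did (13.6%), against 20.3% of all genes. In the third (50 to 80) 5 of 9 members did (55.6%), against 74.0%, and in the fourth (81 to 112) 3 of 4 (75%), against 82.2%. The highest quintile (113 to 323) held 3 members, of which Cyp46a1 had a peak in all 3 libraries (33.3%), against 80.7% of all genes. The other members there were Cyp26a1 and Cyp26b1. In each quintile the share of members with a peak in all 3 libraries lay below that of all genes, and the higher quintiles held few members. For a peak in at least 1 library the order was the other way in 4 of the 5 quintiles. The shares of members were 10.7%, 54.5%, 88.9%, 100% and 100% from the lowest quintile to the highest, against 7.89%, 48.0%, 91.9%, 96.0% and 97.4% of all genes, and members with a peak in a single library, mostly replicate 2, enter that count.

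**Figure D4:**
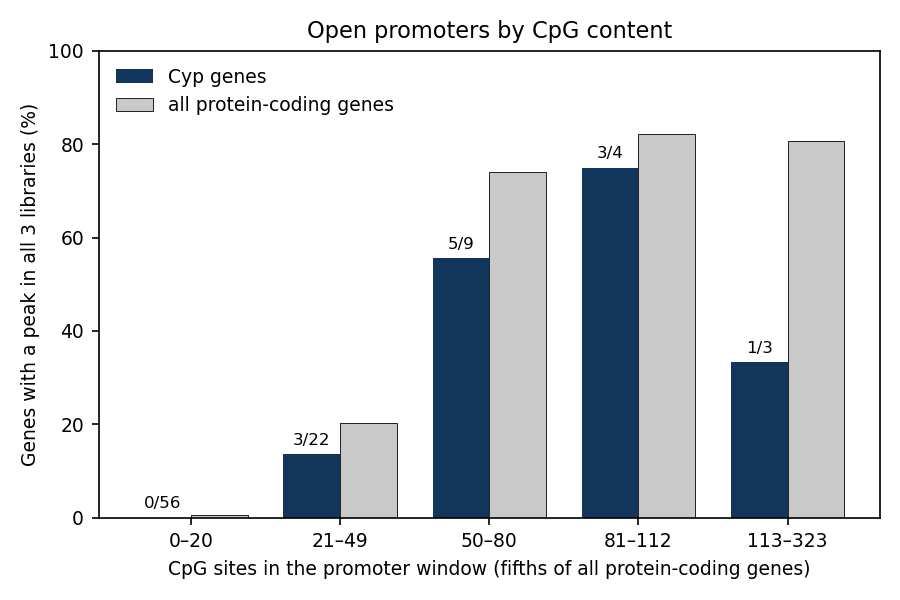
Bars give the percent of genes with a promoter peak in all 3 libraries (y axis) for Cyp genes and all protein-coding genes, in 5 equal classes of all genes by CpG sites in the promoter window (x axis). Numbers above the dark bars are Cyp genes with such a peak over Cyp genes in the class, and 56 of the 94 members fall in the class with 0 to 20 sites.

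Cyp promoters without a peak held the TATA box and the letters of some liver factors more often than all promoters without a peak. The sets were not matched for base content. Their promoter windows held a median of 12 CpG sites in Cyp genes without a peak and 17 in all such genes. Sequence from 250 bp before to 50 bp after the first coding TSS was searched on both strands for 12 short motifs, chosen with earlier results of these data known. TATAAA, the TATA box, occurred in 29 of 61 Cyp promoters without a peak (47.5%), against 23.1% of all 6996 genes without a peak. It occurred in 0 of 12 Cyp promoters with a peak in all 3 libraries, against 6.47% of all 11223 such genes. Counted on the coding strand with its first base at -40 to -20, it occurred in 8 of the 61 (13.1%), against 5.30% of all genes without a peak. CAAAGTCCA, a form of the site of the liver factor HNF4, occurred in 9 of the 61 (14.8%), against 0.643% of all genes without a peak and 0.412% of all 21827 genes. Of these 9, 6 were Cyp2c genes, 2 were Cyp3a11 and Cyp3a16 and the other was Cyp8b1, so most are neighbours related by sequence and are not independent. TGTTTAC, a FOXA site, occurred in 7 of the 61 (11.5%), against 4.06% of all genes without a peak, and 5 of the 7 were Cyp2c or Cyp3a genes. TTGCNNAA, a C/EBP site, occurred in 16 (26.2%), against 14.5%, and 13 of the 16 were CYP2 genes. Of the 29 with a TATA box, 20 were CYP2 genes. Motifs of wider use also ran above the background, with CCAAT in 29 of the 61 (47.5%), against 40.7%, and AGATAA, the site of GATA factors, in 13 (21.3%), against 16.9%. GTTAAT, an HNF1 site, occurred in 7 (11.5%), against 10.7%, a share near the background. CAAGGTCA, an orphan receptor site, and TCACNCCAC, a sterol response element, occurred in 1 each (1.64%), against 2.13% and 1.32%. CACGTG, the E-box, occurred in 0 of the 61, against 3.73%, and GCGTG, the core of the dioxin response element, in 3 of the 61, against 910 of all 6996. GGGCGG, the GC box, occurred in 2 of the 61 (3.28%), against 10.8% of all genes without a peak. It occurred in 8 of the 12 Cyp promoters with a peak in all 3 libraries (66.7%), against 66.1% of all such genes.

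**Figure D5:**
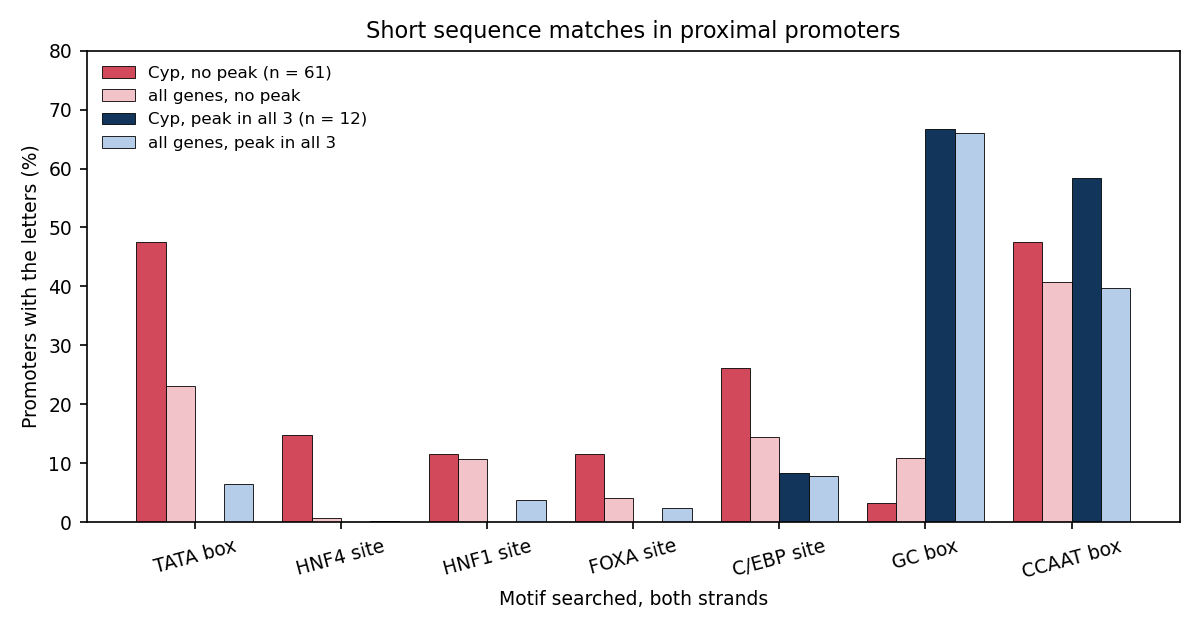
Bars give the percent of promoters (250 bp before to 50 bp after the TSS) that hold the letters of each motif on either strand, for Cyp genes without a peak, all genes without a peak, Cyp genes with a peak in all 3 libraries and all such genes. The TATA box reaches 47.5% in Cyp promoters without a peak and 0 of 12 in those with a peak, and the GC box reaches 3.28% and 66.7%.

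The 150 bases upstream of the TSS of 3 liver P450 genes without a peak are shown because they hold these letters in different places. Cyp8b1 acts in bile acid synthesis, and Cyp2c70 (hydroxylation of bile acids in mice) and Cyp3a11 (the main hepatic CYP3A of adult mice) were picked after their sequences were seen. Capitals mark a TATA box, an HNF1 site, an HNF4 site, a FOXA site or a C/EBP site. The stretches held 3, 3 and 1 CpG sites in Cyp8b1, Cyp2c70 and Cyp3a11, against 14 in the stretch of Cyp51 printed above. In Cyp8b1 the HNF4 letters lie at -67 to -59 and the TATA box at -31 to -26. In Cyp2c70 the HNF4 letters lie at -64 to -56, and TATAAA lies at -29 to -24 on the opposite strand, where it reads TTTATA in the printed sequence. In Cyp3a11 the TATA letters lie farther upstream, at -124 to -119, with a FOXA site at -88 to -82 and no HNF4 letters in the stretch. A match of letters is not evidence of binding. All 3 are on the minus strand of mm10 (Cyp8b1 at chr9:121916306-121916455, Cyp2c70 at chr19:40187287-40187436 and Cyp3a11 at chr5:145879965-145880114):
Cyp8b1: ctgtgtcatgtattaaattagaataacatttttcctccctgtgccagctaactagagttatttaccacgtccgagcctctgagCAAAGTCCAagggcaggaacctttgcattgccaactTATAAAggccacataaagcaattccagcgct
Cyp2c70: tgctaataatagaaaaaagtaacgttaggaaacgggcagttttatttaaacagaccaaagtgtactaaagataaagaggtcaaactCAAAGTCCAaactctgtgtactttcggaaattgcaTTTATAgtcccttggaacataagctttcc
Cyp3a11: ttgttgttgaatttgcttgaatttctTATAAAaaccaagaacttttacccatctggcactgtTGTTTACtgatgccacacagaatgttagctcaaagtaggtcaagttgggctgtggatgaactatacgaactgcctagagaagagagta

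Genes inside P450 clusters rarely had a promoter peak in all 3 libraries. Clusters were runs of at least 3 Cyp genes less than 200 kb apart, and 8 such runs held 58 members. Of these 58, 1 (Cyp4f39) had a promoter peak in every library and 13 (22.4%) in at least 1, against 51.4% and 67.9% of all protein-coding genes. Their windows held a median of 12 CpG sites. Among all genes with 0 to 20 sites, the shares were 0.709% and 7.89%. Some cluster members had more than 20 sites, among them Cyp4f39 with 38 and Cyp2s1 with 62. The cluster members are therefore not matched to that class. Of the 36 members outside clusters, 11 had a peak in all 3 libraries and 20 (55.6%) in at least 1, against the same 51.4% and 67.9%. Their median was 32 CpG sites. Of 5 other coding genes in or within 10 kb of the clusters, 3 had a peak in all 3 libraries, too few to set against the 51.4% of all genes. They were Hook1, beside the Cyp2j genes, and Egln2 and Rab4b, at the end of the Cyp2a cluster.

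Distal accessible regions, more than 1000 bp from any coding TSS, were fewer per length near P450 genes as a whole than near all genes. Within the gene bodies and 10 kb on either side, 17 regions were shared by the 3 libraries, a density of 0.401 per 100 kb, against 0.672 per 100 kb for all protein-coding genes. The density was 0.143 per 100 kb at members without a promoter peak, 1.13 at those with a peak in 1 or 2 libraries and 0.675 at those with a peak in all 3. Without replicate 1, the library with the fewest peaks, the number of shared regions was 38. The largest cluster, with 14 Cyp2c genes over 1200 kb of chromosome 19, held no distal region found in all 3 libraries and 17 found in 1 or 2.

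Among the 8 clusters, that of the Cyp4f genes on chromosome 17 had the highest density of regions shared by the 3 libraries. The copied share was computed for promoter windows only and is not known for these regions. Its 6 genes held 5 such regions in 271 kb, or 1.85 per 100 kb, and 7 of the 17 regions lay nearest a Cyp4f gene. Outside clusters, Cyp2w1, Cyp4x1 and Cyp26b1 had 2 each. Of the 17, 7 lay in exons, 5 in introns and 5 between genes, and 6 of the 7 exonic ones were in Cyp4f exons. The highest of the 17 by mean percentile among peaks lay in an exon of Cyp4f17 (chr17:32528821-32529060), with signals of 2.62, 4.38 and 3.00 in replicates 1, 2 and 3. In replicate 2 a region near Cyp2w1 (chr5:139364271-139364460) was stronger, at 4.51. The exonic region in Cyp4f16 (chr17:32551081-32551400) had 2.02, 2.35 and 1.13, and that in Cyp4f37 (chr17:32635061-32635340) had 1.70, 1.50 and 0.761. The core of the CTCF motif, with at most 1 mismatch, occurred in each of these 3 exonic Cyp4f regions and in another between genes near Cyp4f13 (chr17:32951541-32951760). As in the region near Cyp2w1 named above and in a region near Cyp2t4, the 14 core bases lay in a footprint in every library in all 4. The 20 bases around each core are shown because the sites of Cyp4f17 and Cyp4f16 have identical letters, as far as printed, and the other 2 share their core (mm10; capitals mark the core; plus strand for the first 3 and minus strand for the last):
Cyp4f17, chr17:32528959-32528978: gagCCATCAGAGGGCGCtgc
Cyp4f16, chr17:32551298-32551317: gagCCATCAGAGGGCGCtgc
Cyp4f37, chr17:32635234-32635253: acgCCAGCAGGGGGCGCtag
near Cyp4f13, chr17:32951633-32951652: gtaCCAGCAGGGGGCGCggt

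This motif was chosen after the sequences were seen. Over all 17 regions, 8 held a match (47.1%), against 40.8% of the 12121 distal regions found in all 3 libraries over the genome, so P450 genes were near the background in this respect. Of all promoter windows 8.64% held one.

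The electron donors of P450 enzymes had accessible promoters. All 7 redox partners examined had a promoter peak in all 3 libraries, against 51.4% of all protein-coding genes. Por, the oxidoreductase that feeds electrons to the microsomal P450 enzymes, was the highest at a mean percentile of 98.4, and Fdx1, the mitochondrial ferredoxin, the lowest at 53.7. The mean percentile of 4 of the 7 exceeded that of every Cyp gene. All 19 other enzymes of cholesterol synthesis likewise had a peak in all 3 libraries, from Mvd at 96.9 to Ebp at 66.6. Cyp51 stood below 16 of them and above 3.

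Regulators and neighbouring pathways were mixed. Of 26 nuclear receptors and other regulators of P450 genes, 15 had a peak in all 3 libraries (57.7%), near the 51.4% of all protein-coding genes, with Nfe2l2, the oxidative stress factor, the highest at a mean percentile of 98.6. Ahr, the receptor of the CYP1 genes, stood at 59.4. Nr1i3, the receptor CAR that drives Cyp2b genes, had no peak. Nr1i2, the receptor PXR that drives Cyp3a genes, had a peak of 0.443 in replicate 3 alone. Ppara, the gene of PPAR alpha, stood at 63.2 with a peak in all 3 libraries, and none of the 5 Cyp4a genes had a peak. The Cyp4a windows held 5 to 13 CpG sites. Of all genes with 0 to 20 sites, 7.89% had a peak in at least 1 library. A relation between receptor and target genes was not tested. Ahr, Nr1i2 and Ppara were named after their values were seen. Nr5a1, a regulator of steroid synthesis, had no peak. Of 28 conjugating enzymes of drug metabolism, 11 had a peak in all 3 libraries (39.3%), against the same 51.4%, with Tpmt, which methylates thiopurines, the highest at 94.7. Of 11 other bile acid enzymes 5 did (45.5%), near that share, with Scp2 the highest at 80.6, and of 10 other steroid hormone genes 2 did (20%), with Srd5a1, a steroid reductase, the highest at 97.3.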

How the data were processed

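DNase-seq peaks, footprints and false discovery rate positions of 3 libraries of embryonic liver were used as deposited, in mm10 per the labels. No source used here names the peak caller or aligner. Each library has 2 deposited lists of peaks, and the list with more rows was the main one. The peak signal is the value that the authors deposited, scaled within each library, so genes were ranked within a library. If its step is 1 count, depths stood as 1 to 3.22 to 1.62 in replicates 1, 2 and 3, and this is not stated in the labels. The q-value of each position was deposited by the authors and lists values of at most 0.05. Footprints carry no score. Read totals were not used here.

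Genes came from GENCODE M21, and gene IDs with the same symbol on a chromosome were merged. The steps computed here were the overlap of peaks with promoters by at least 1 bp, the merging of overlapping peaks of the 3 libraries into regions, and the search for 36-base words and motifs in GRCm38, the same build. Python 3.11.15, numpy 2.4.6 and pandas 2.3.3 were used, and the steps were tested on simulated data. The libraries form 1 group, so no test was made, and values are described beside all protein-coding genes.

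Members, gene lists and motifs were chosen with earlier results of these data known. Named genes were all members of the sterol, bile acid, vitamin D, retinoic acid, CYP1 and orphan groups. In CYP2, CYP3 and CYP4, members with a peak in all 3 libraries and the next 3 by mean percentile were named. The highest and lowest genes of each pathway list could be named too. Of the lists, Fdx2 is not under that symbol in the annotation. Marker lists not given in the report had a peak in all 3 libraries at 0 of 7 macrophage and myeloid, 1 of 6 endothelial, 4 of 6 mesenchymal and stellate and 0 of 5 megakaryocyte genes. Intervals for counting error need depths and were not computed.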

Additional observations from a re-analysis of the deposited data

How the results depend on the processing

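The 12 promoters with a peak in all 3 libraries gave counts of 8 to 14 under the other settings that keep 3 libraries and 12 to 17 when a replicate was left out. The shares of all protein-coding genes ran from 46.7% to 53.5% and from 51.4% to 55.9% under the same settings. On the shorter peak list, 8 of the 12 kept a peak (Cyp1a1, Cyp1b1, Cyp4v3 and Cyp7b1 did not), against 46.7% of all protein-coding genes. An overlap of at least 100 bp lost Cyp46a1, whose peak in replicate 2 is 80 bp wide, and Cyp7b1. A window of 500 bp lost Cyp1b1, and a window of 2500 bp added Cyp26b1 and Cyp2w1. The mean share of members with a peak was 14.5% ± 1.63 on the 34369 strongest peaks of each library, against 51.9% of all genes. When a replicate was left out it was 18.1% to 26.6%, against 55.2% to 61.9% of all genes. Footprint counts ran from 10 to 15, against 11, and the shares of all genes under these settings were not computed. The number of distal regions was the least stable: 8 on the shorter list, 45 with flanks of 50 kb, and 17 to 38 when a replicate was left out. Members whose symbols end in a further letter, added after the data were seen, brought 6 genes with no further peak in all 3 libraries. Of the 33 named genes, 4 to 7 moved by more than their SD in percentile under each of the 6 other settings that keep 3 libraries. That SD is wide for genes with a peak in 1 or 2 libraries, so the loss of a peak can go uncounted. Cyp21a1, at 13.4 ± 23.2, fell to 0 with a window of 500 bp and was not counted as moved. These numbers are therefore no measure of stability for such genes. With 3 libraries of unequal peak number, a missing peak shows no detectable accessibility at that depth. No paired analysis was possible because the libraries form a single group.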
